A study of Homo sapiens with 12 samples.

Results

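The genes described here are SPRY1, SPRY2, SPRY4, SPRED1, SPRED2, SPRED3, TRIB1 and TRIB2, which encode Sprouty, Spred and Tribbles proteins. They were chosen by symbol: a probe set was taken when its platform annotation held exactly 1 of these symbols, and each of the 8 genes had 1 such probe set. They are 8 of 18417 genes so measured, on an array with 29094 tested probe sets. The 8 genes were chosen with earlier results of these data known, so counts among them are a description only. Expression was measured in U2OS-ERα cells, a human osteosarcoma line that carries estrogen receptor α, on 12 Affymetrix Human Gene 1.0 ST arrays. Of the 4 groups, siSRC-1_E received an siRNA pool against SRC-1 (gene NCOA1, a nuclear receptor coactivator) and 17-B-estradiol, and siSRC-1_V received the same pool and ethanol vehicle. NT_E received a non-targeting siRNA pool and 17-B-estradiol, and NT_V the non-targeting pool and ethanol. All groups shared 50 nM siRNA, medium with charcoal-stripped serum, and 3 h of hormone or vehicle, and each held 3 arrays labelled as biological replicates. The estradiol dose is not given in the sources used here, and all arrays come from 1 cell line, so p-values measure the spread among samples of that line. In such bulk RNA, less RNA per cell and fewer cells of a type cannot be told apart.

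Sprouty and Spred proteins restrain signalling from growth factor receptors through RAS and the kinases RAF, MEK and ERK. Sprouty genes are themselves induced by ERK signalling and so close a feedback loop, while Spred proteins bring the RAS-inactivating protein neurofibromin to the plasma membrane. Tribbles proteins are pseudokinases, which keep a kinase fold with little or no catalytic activity: they bind the ubiquitin ligase COP1 and present C/EBP transcription factors for degradation, and they also bind MEK. In cells of the bone lineage, FGF and EGF receptors that act through this pathway govern growth and differentiation.

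The labels were checked first. NCOA1 (probe set 8040552) averaged 6.86 ± 0.07 log2 in siSRC-1_E and 9.08 ± 0.07 in NT_E, and 5.86 ± 0.29 in siSRC-1_V and 8.79 ± 0.06 in NT_V (SD, n = 3 each), which is 4.64-fold and 7.60-fold lower with the SRC-1 pool. NCOA1 was 1.00 log2 higher in siSRC-1_E than in siSRC-1_V (limma adjusted p = 0.00029) and 0.29 log2 higher in NT_E than in NT_V (0.275), and the difference of these effects was not called (0.442). ESR1, the estrogen receptor α gene, stayed between group means of 12.03 and 12.16 log2. Of the bone lineage markers, SPARC averaged 12.5, SPP1 9.41, COL1A1 9.12, ALPL 7.58, RUNX2 7.21 and COL1A2 6.62 log2. Also on that list, BGLAP has no value here, and IBSP (4.93 log2) lay below the lower quartile of every array (5.17 to 5.24 log2). Of 3 leukocyte markers, PTPRC (4.19 log2) lay below that quartile in every array, while CD14 (5.75 log2) and CD3E (5.67 log2) lay above it in every array. Of the epithelial markers, the keratins KRT8 and KRT18 averaged 11.2 and 11.9 log2, EPCAM 7.35 and CDH1 5.92 log2. The mesenchymal markers VIM, FN1 and CDH2 averaged 12.5, 11.7 and 11.1 log2. The endothelial markers PECAM1, VWF and CDH5 averaged 5.09, 5.70 and 6.10 log2, and the PECAM1 mean lay below the lower quartile of every array. Array medians spanned 6.85 to 6.92 log2, arrays of 1 group correlated at 0.9952 to 0.9968 across probe sets, and with 3 arrays a group small differences cannot be resolved. The mean of 4203 probe sets taken as array controls moved with hormone: it deviated by 0.094 to 0.178 log2 in siSRC-1_E and by -0.159 to -0.024 in siSRC-1_V, and by -0.003 to 0.068 in NT_E and by -0.123 to -0.039 in NT_V.

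Within 3 h of estradiol, TRIB1 and SPRY2 transcripts fell with either siRNA pool, and none of the 8 genes was called higher. TRIB2 fell when the estradiol effect was averaged over both pools. A call required p under 0.01 in limma together with a Benjamini-Hochberg value under 0.05, adjusted over every probe set tested. With SRC-1 siRNA 2 of the 8 were called lower and 0 higher, where 6.88% of all probe sets were called, 2.39% lower and 4.49% higher. With the non-targeting pool 2 of the 8 were called lower and 0 higher, where 2.73% of all probe sets were called, 0.873% lower and 1.85% higher. In the averaged estradiol effect 3 of 8 were called, all lower, against 9.96% of all probe sets called, 3.85% lower and 6.11% higher. The groups of 3 of the 8 did not overlap, lower with estradiol, with either pool, as did those of 12.8% of all probe sets with SRC-1 siRNA and 10.9% with the non-targeting pool. The median log2 difference of the 8 was -0.07 with SRC-1 siRNA and -0.04 with non-targeting siRNA, against -0.02 and -0.01 over all tested probe sets. The 2 estradiol comparisons share no arrays in their group means. Their spread was estimated from all 12 arrays together, so the 2 tests are not independent.

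**Figure D1:**
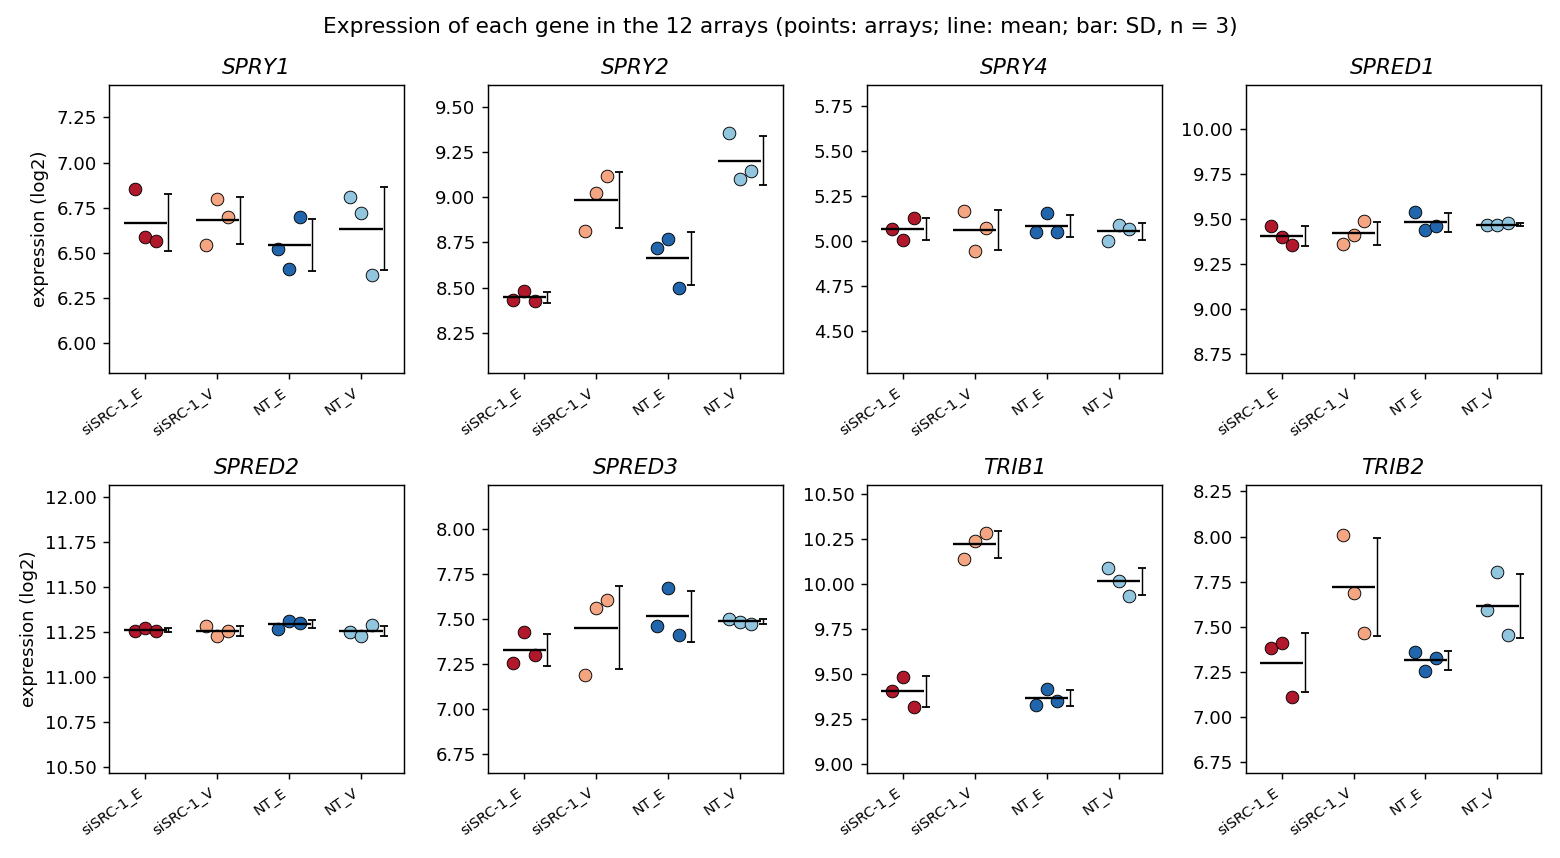
Expression on the log2 scale (vertical axes, each with its own position and the same span) of the 8 genes in the 4 groups (horizontal axis). Points are arrays, lines group means and bars SD (n = 3). For TRIB1, SPRY2 and TRIB2 every estradiol array lies below every vehicle array of the same siRNA pool, while for the other 5 genes the points of the groups overlap.

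SPRY2 (probe set 7972217) encodes a Sprouty protein that is a feedback inhibitor of FGF receptor signalling and binds the ubiquitin ligase CBL and the adaptor GRB2. It read 8.43, 8.48 and 8.43 log2 in siSRC-1_E, against 8.81, 9.03 and 9.12 log2 in siSRC-1_V. It read 8.72, 8.77 and 8.50 log2 in NT_E, against 9.36, 9.10 and 9.15 log2 in NT_V. All 3 estradiol arrays were thus low with either pool, and neither pair of groups overlapped. The log2 difference was -0.54 ± 0.09 (SE) with SRC-1 siRNA (limma adjusted p = 0.00592) and -0.54 ± 0.09 with non-targeting siRNA (limma adjusted p = 0.009), so that estradiol arrays held 68.8% of the vehicle level with either pool. Averaged over both pools it was -0.54 with a 95% interval from -0.69 to -0.39 (limma adjusted p = 0.000355). Ranked from the most negative of 29094 differences, it stood at place 59 with SRC-1 siRNA and 49 with the non-targeting pool. From the highest group mean to the lowest, the order was NT_V at 9.20, siSRC-1_V at 8.99, NT_E at 8.66 and siSRC-1_E at 8.45 log2. NT_V and siSRC-1_V overlapped, the other neighbours in that order did not, siSRC-1_V against NT_E was not tested, and the differences between siRNA pools given further on were not called.

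The calls of SPRY2 held in each of 12 fits that left out 1 array, with differences between -0.63 and -0.46 log2 over both comparisons. They were lost with the array mean of the control probe sets as a covariate, at -0.37 log2 (limma adjusted p = 0.644) with SRC-1 siRNA and -0.46 log2 (0.19) with non-targeting siRNA. That mean was higher in every estradiol array than in the vehicle arrays of its pool, so the covariate and the hormone cannot be told apart. Over all probe sets the fit with the covariate gave 106 calls against 2001 with SRC-1 siRNA, and 366 against 793 with non-targeting siRNA.

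Promoter windows are shown for SPRY2 and TRIB2, which moved the same way with hormone, and for SPRED2, a member of the set with no call. RefSeq windows of 300 bases ran from 250 before to 50 after an annotated start site. Windows of 7 of the 8 genes were used (12 windows, build GRCh38.p14). No TRIB1 window was among those searched, so its promoter was not examined. The SPRY2 window lies at chr13:80341077-80341376 on the minus strand, the TRIB2 window at chr2:12716686-12716985 on the plus strand and the SPRED2 window at chr2:65432550-65432849 on the minus strand, each from the most upstream start site and written 5′ to 3′ on the gene's strand. Capitals mark GGAAG, the core bound by ETS factors, and GGGCGG, the GC box bound by Sp1, on either strand.
SPRY2: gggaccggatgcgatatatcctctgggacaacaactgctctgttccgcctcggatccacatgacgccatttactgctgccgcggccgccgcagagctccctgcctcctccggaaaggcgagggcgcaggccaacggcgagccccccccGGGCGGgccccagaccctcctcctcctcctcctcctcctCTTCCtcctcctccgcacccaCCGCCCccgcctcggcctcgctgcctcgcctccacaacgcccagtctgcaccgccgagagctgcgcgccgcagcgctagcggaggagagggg
TRIB2: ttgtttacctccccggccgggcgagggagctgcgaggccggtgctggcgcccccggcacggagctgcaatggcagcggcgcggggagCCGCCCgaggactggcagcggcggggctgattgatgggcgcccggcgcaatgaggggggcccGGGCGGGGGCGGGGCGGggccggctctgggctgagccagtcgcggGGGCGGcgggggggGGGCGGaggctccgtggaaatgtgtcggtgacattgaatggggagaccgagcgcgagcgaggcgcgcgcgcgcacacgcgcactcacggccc
SPRED2: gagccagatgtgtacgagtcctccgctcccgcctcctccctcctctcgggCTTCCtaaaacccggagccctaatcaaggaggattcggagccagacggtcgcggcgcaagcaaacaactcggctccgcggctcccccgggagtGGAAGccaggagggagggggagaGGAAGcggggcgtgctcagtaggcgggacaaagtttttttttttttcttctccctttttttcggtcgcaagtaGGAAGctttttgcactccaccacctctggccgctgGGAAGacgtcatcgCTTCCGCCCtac

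In these windows GGGCGG matched 2 times in SPRY2, 6 times in TRIB2 and 1 time in SPRED2. Of the 35116 windows of the same length that were searched, 45.0% hold it. These 35116 are meant by all windows below, and windows not searched do not enter the shares. GGAAG matched 1 time in SPRY2, 0 times in TRIB2 and 6 times in SPRED2, where 71.9% of all windows hold at least 1 match. Counts differed between windows of the same gene. Downstream, GGAAG matched 3 and 1 times in the other SPRY2 windows and 2 times in the other SPRED2 window. GGGCGG matched 0 and 1 times in those SPRY2 windows and 0 times in that SPRED2 window. The downstream window of SPRY1, also with no call, held GGGCGG 2 times and GGAAG 3 times. In the printed windows the GC content was 71.0% in SPRY2, 77.3% in TRIB2 and 60.0% in SPRED2, and the median over all windows was 58.7%. Both strands were also searched for the palindromic estrogen response element (GGTCA, any 3 bases, then its reverse complement), the half-site GGTCA alone, the AP-1 motif TGANTCA and the cAMP response element TGACGTCA, where a half-site can lie inside the full element. None of the 3 SPRY2 windows or the TRIB2 window held any of these 4, which occur in 0.057%, 37.4%, 7.71% and 1.85% of all windows. Among the 12 windows, GGTCA was found 3 times in the SPRY4 window and TGANTCA 2 times in the downstream SPRED2 window and 1 time in the downstream SPRED3 window. A match is a description of the letters in the window only.

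SPRY1, which restrains FGF and GDNF receptor signalling, varied more between arrays than between groups. It ranged over 6.56 to 6.85 log2 in siSRC-1_E and 6.54 to 6.80 in siSRC-1_V, and over 6.41 to 6.70 in NT_E and 6.37 to 6.81 in NT_V. The estradiol difference was -0.01 log2 with SRC-1 siRNA (95% interval -0.28 to 0.26) and -0.09 with non-targeting siRNA (-0.36 to 0.18), and limma called neither.

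SPRY4, a Sprouty gene that ERK signalling induces in many cell types, read between 4.94 and 5.17 log2 over the 12 arrays. That is below the lower quartile of tested probe sets in each of the 12, so its signal is not shown to exceed background. The estradiol differences were 0.00 log2 with SRC-1 siRNA (95% interval -0.13 to 0.14) and 0.03 with non-targeting siRNA (-0.10 to 0.17), and they carry little information on a transcript that may not be detected.

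The 3 Spred genes gave no call in any comparison. SPRED1, mutated in Legius syndrome, averaged 9.40 ± 0.05 log2 in siSRC-1_E and 9.42 ± 0.07 in siSRC-1_V, and 9.48 ± 0.05 in NT_E and 9.47 ± 0.01 in NT_V (SD, n = 3 each). Its estradiol differences were -0.02 log2 (95% interval -0.12 to 0.09) with SRC-1 siRNA and 0.01 (-0.09 to 0.12) with non-targeting siRNA. SPRED2, its close paralogue, averaged 11.26 ± 0.01 log2 in siSRC-1_E and 11.26 ± 0.03 in siSRC-1_V, and 11.29 ± 0.02 in NT_E and 11.26 ± 0.03 in NT_V. The differences of SPRED2 were 0.01 log2 (-0.08 to 0.09) and 0.04 (-0.04 to 0.12), the narrowest intervals among the 8 genes. The lower bounds of SPRED1 and SPRED2, at or above -0.12 log2, lie apart from the SPRY2 and TRIB1 intervals, whose upper bounds reach -0.33 and -0.52 log2. A test between genes was not made.

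SPRED3, a Spred protein that lacks the KIT-binding function of its relatives, was the most scattered of the 3. It read 7.26, 7.43 and 7.30 log2 in siSRC-1_E, against 7.19, 7.56 and 7.61 log2 in siSRC-1_V. It read 7.46, 7.68 and 7.41 log2 in NT_E, against 7.50, 7.48 and 7.48 log2 in NT_V. The single low vehicle array, siSRC-1_V replicate 1, lay below the estradiol arrays of its pool, and the groups overlapped. The differences were -0.12 log2 with SRC-1 siRNA (95% interval -0.35 to 0.10) and 0.03 with non-targeting siRNA (-0.20 to 0.26).

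TRIB1 (probe set 8148304) encodes a pseudokinase that recruits COP1 to C/EBPα, and it had the largest estradiol difference among the 8 genes with either pool. It read 9.41, 9.49 and 9.32 log2 in siSRC-1_E, against 10.14, 10.24 and 10.28 log2 in siSRC-1_V. It read 9.33, 9.42 and 9.35 log2 in NT_E, against 10.09, 10.02 and 9.94 log2 in NT_V. The 6 estradiol arrays lay within 9.32 to 9.49 log2 whichever pool was used, and all 6 vehicle arrays lay above them. The difference was -0.82 ± 0.06 log2 (SE) with SRC-1 siRNA (limma adjusted p = 1.13e-05), which leaves 56.8% of the vehicle level. With non-targeting siRNA it was -0.65 ± 0.06 log2 (limma adjusted p = 8.75e-05), which leaves 63.8%. Ranked from the most negative of 29094 differences, it stood at place 5 with SRC-1 siRNA and 17 with the non-targeting pool.

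The calls of TRIB1 held in each of the 12 fits without 1 array, at -0.86 to -0.77 log2 with SRC-1 siRNA and -0.69 to -0.61 with non-targeting siRNA. With the control mean as a covariate the difference was -0.68 log2 and not called with SRC-1 siRNA (limma adjusted p = 0.0831), and -0.58 log2 and still called with non-targeting siRNA (0.00602).

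TRIB2 (probe set 8040365), a relative that also uses COP1 and acts as an oncogene in leukaemia models, was lower in every estradiol array than in the vehicle arrays of its pool. It read 7.38, 7.41 and 7.11 log2 in siSRC-1_E, against 8.01, 7.69 and 7.47 log2 in siSRC-1_V. It read 7.36, 7.26 and 7.33 log2 in NT_E, against 7.59, 7.81 and 7.45 log2 in NT_V. The vehicle arrays were more spread than the estradiol arrays, and the lowest of them lay close to the highest estradiol array. Neither single comparison passed the test, with -0.42 ± 0.13 log2 (SE) with SRC-1 siRNA (limma adjusted p = 0.0824) and -0.30 ± 0.13 with non-targeting siRNA (0.348). Averaged over both pools TRIB2 fell by 0.36 log2, to 77.8% of the vehicle level, with a 95% interval from -0.57 to -0.16 (limma adjusted p = 0.0318).

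The averaged TRIB2 call depended on single arrays. It was lost without NT_V replicate 1 or 2, without any 1 of the 3 NT_E replicates, without siSRC-1_V replicate 2 and without siSRC-1_E replicate 3, at limma adjusted p-values of 0.054 to 0.0734 and differences of -0.37 to -0.31 log2, and it was lost with the control mean as a covariate (-0.33 log2, 0.649). With SRC-1 siRNA the single comparison was called without siSRC-1_V replicate 3, the lowest vehicle array of that pool, at -0.55 log2 (0.0402).

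TRIB3, the remaining Tribbles gene, which ATF4 induces under stress and which is not among the 8 genes, differed by -0.25 ± 0.05 log2 (SE) with SRC-1 siRNA (limma adjusted p = 0.0128) and by -0.13 ± 0.05 with non-targeting siRNA (0.3). Its estradiol arrays lay below its vehicle arrays with both pools, as did those of 12.8% of all probe sets with SRC-1 siRNA and 10.9% with the non-targeting pool.

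SRC-1 siRNA by itself gave no call among the 8 genes: 0 of 8 under estradiol, where 1.8% of all probe sets were called, and 0 of 8 under vehicle, where 1.21% were. TRIB1 came closest under vehicle, with 10.14 to 10.28 log2 in siSRC-1_V and 9.94 to 10.09 log2 in NT_V. Those groups did not overlap, the vehicle arrays with SRC-1 siRNA being higher as in 8.19% of all probe sets, and the difference was 0.21 ± 0.06 log2 (SE, limma adjusted p = 0.154). Under estradiol the TRIB1 difference was 0.04 ± 0.06 log2 (0.815). SPRY2 differed by -0.22 ± 0.09 log2 under estradiol (0.295), where the groups did not overlap and siSRC-1_E was lower as in 11.5% of all probe sets, and by -0.22 ± 0.09 under vehicle (0.369), and averaged over both treatments by -0.22 log2 with a 95% interval from -0.36 to -0.07 (limma adjusted p = 0.0951). Averaged over both treatments 0 of the 8 were called, where 5.1% of all probe sets were. Each siRNA comparison shares 3 arrays with each estradiol comparison. The other 6 genes differed by -0.19 to 0.12 log2 under estradiol and by -0.05 to 0.10 log2 under vehicle.

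Whether the SRC-1 pool altered the hormone response of these genes was asked as the difference of the 2 estradiol effects, SRC-1 siRNA minus non-targeting siRNA. Limma called 0 of the 8 and 0 of 29094 probe sets (0%), of which 2102 had an unadjusted p under 0.05, none of them among the 8, and with a trended and robust variance it called 2 probe sets and 0 of the 8. For SPRY2 the difference was 0.00 log2 with a 95% interval from -0.29 to 0.29. For TRIB1 it was -0.17 log2 (-0.35 to 0.02, limma adjusted p = 0.725). The TRIB2 interval ran from -0.53 to 0.29 log2, the SPRY1 interval from -0.30 to 0.46 and the SPRED3 interval from -0.48 to 0.17. These intervals do not show that the responses were alike: a loss of about 0.29 log2 of the SPRY2 decrease would lie at the edge of its interval.

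**Figure D2:**
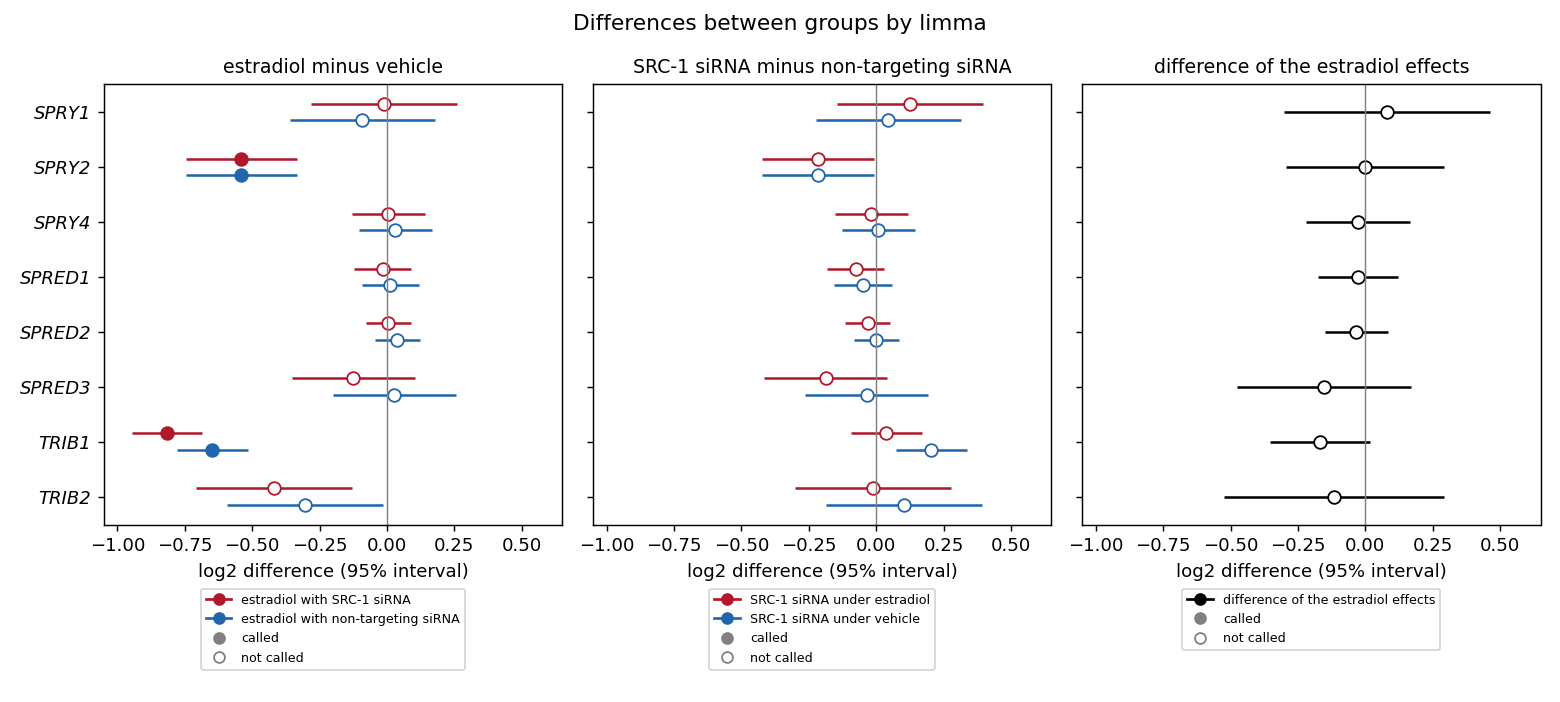
Log2 differences with 95% intervals (horizontal axes) for the 8 genes (rows) by limma, for estradiol minus vehicle, SRC-1 siRNA minus non-targeting siRNA, and the difference of the estradiol effects. Filled points passed the call rule: they are SPRY2 and TRIB1 in the estradiol panel, with either pool, and no gene in the other panels.

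Other genes of the pathway were described from lists of known members. The lists were chosen with earlier results of these data known, so their counts are a description and not a test. They stand beside the share of all probe sets called: 4.49% higher and 2.39% lower with SRC-1 siRNA, and 1.85% higher and 0.873% lower with the non-targeting pool. Of 15 genes that ERK signalling induces, 3 were called higher and 4 lower with SRC-1 siRNA, and 3 higher and 2 lower with non-targeting siRNA. IER3, an immediate-early gene, rose by 1.08 log2 with SRC-1 siRNA and 0.99 with non-targeting siRNA. EGR1, a zinc-finger factor, rose by 0.40 log2 with SRC-1 siRNA (limma adjusted p = 0.0339) and 0.56 with non-targeting siRNA (0.009). EPHA4 rose by 0.33 log2 with SRC-1 siRNA and 0.40 with non-targeting siRNA. DUSP5, a nuclear ERK phosphatase, fell by 0.84 log2 with SRC-1 siRNA and fell by 0.66 log2 with non-targeting siRNA. MYC fell by 0.47 and fell by 0.38 log2 in these comparisons. PHLDA1 fell by 0.30 log2 and FOSL1 fell by 0.31 log2 with SRC-1 siRNA. The median difference of the list was -0.09 log2 with SRC-1 siRNA and 0.01 with non-targeting siRNA, against -0.02 and -0.01 over all probe sets. With SRC-1 siRNA, SPRY2 thus fell beside DUSP5, MYC, PHLDA1 and FOSL1 while IER3, EGR1 and EPHA4 rose. Genes of the list were called in both directions.

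Other brakes on receptor signalling also went both ways, with 4 of 18 measured genes called higher and 4 lower with SRC-1 siRNA and 5 higher and 4 lower with non-targeting siRNA. TOB1, an antiproliferative adaptor, rose by 1.04 log2 with SRC-1 siRNA and 1.05 with non-targeting siRNA. SPSB1, an adaptor of a ubiquitin ligase, rose by 0.75 and 0.80 log2, and RASA2, a RAS GTPase-activating protein, by 0.49 and 0.64 log2. DUSP10, a phosphatase of p38 and JNK, fell by 0.45 log2 with SRC-1 siRNA and fell by 0.73 log2 with non-targeting siRNA. The list medians were 0.00 and -0.05 log2. With SRC-1 siRNA, 5 of the list were called without siSRC-1_V replicate 2 and 5 without siSRC-1_E replicate 3.

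**Figure D3:**
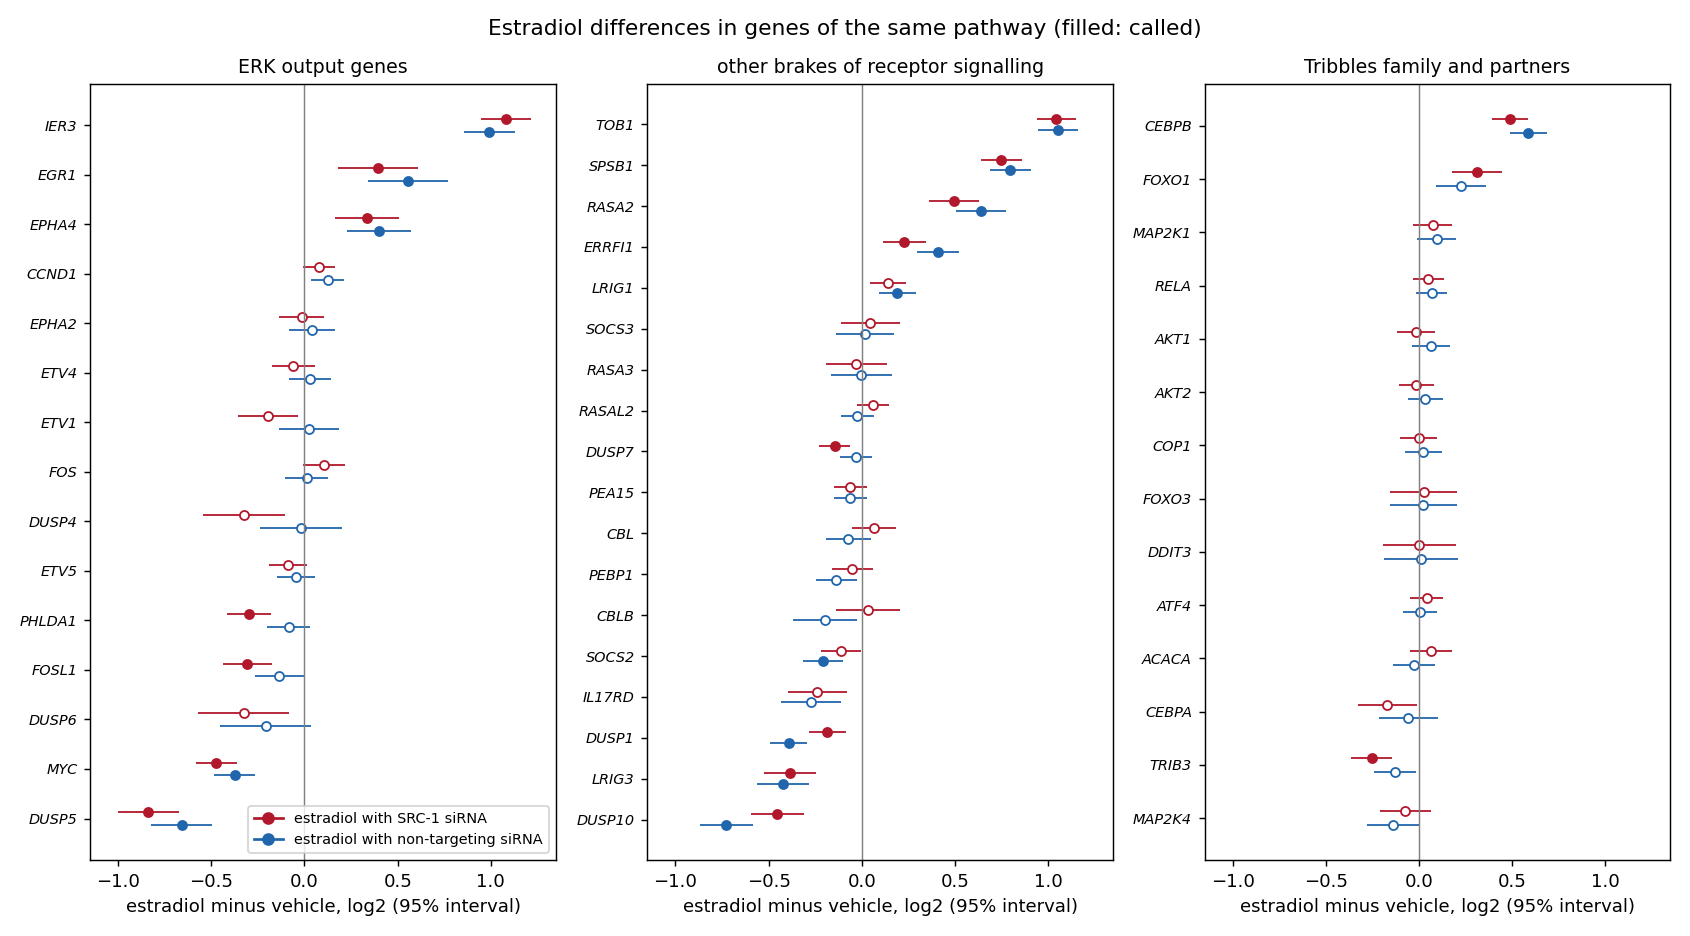
Estradiol minus vehicle on the log2 scale with 95% intervals (horizontal axes) by limma for genes (rows) that ERK induces, other brakes of receptor signalling, and the Tribbles family with its partners, with SRC-1 siRNA (red) and non-targeting siRNA (blue). Filled points passed the call rule, on both sides of 0 in each list, from DUSP5 at -0.84 to IER3 at 1.08 log2.

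Among the partners of Tribbles proteins and TRIB3, 2 of 14 measured genes were called higher and 1 lower with SRC-1 siRNA, and 1 higher and 0 lower with non-targeting siRNA, where 6.88% and 2.73% of all probe sets were called. The list medians were 0.01 and 0.02 log2. CEBPB, a C/EBP factor of the family that Tribbles proteins destabilize, rose by 0.49 log2 with SRC-1 siRNA (limma adjusted p = 7.3e-05) and 0.59 with non-targeting siRNA (1.74e-05). A link between this rise and the fall of TRIB1 was not tested. FOXO1, a forkhead factor restrained by AKT, rose by 0.31 log2 with SRC-1 siRNA, and the gene called lower was TRIB3. The array measures transcripts and holds no value for protein stability.

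The RAS to ERK core was listed with 16 genes, of which 10 had a probe set of their own and 6 have no value here. Of these 10, 1 was called with either pool, beside 6.88% of all probe sets with SRC-1 siRNA and 2.73% with the non-targeting pool. It was KSR1, a scaffold that binds RAF, MEK and ERK, which rose by 0.79 log2 with SRC-1 siRNA and 0.81 with non-targeting siRNA. Of 19 receptors and adaptors, 0 were called higher and 3 lower with SRC-1 siRNA, and 0 higher and 2 lower with non-targeting siRNA. The receptor genes ERBB3 and FGFR2 fell by 0.33 and fell by 0.18 log2 with SRC-1 siRNA, where MET fell by 0.23 log2, and with non-targeting siRNA ERBB3 fell by 0.26 and FGFR2 fell by 0.30 log2. The count of 2 became 1 when any array was left out other than NT_V replicate 1 and siSRC-1_V replicates 2 and 3.

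Of 11 measured partners of Sprouty and Spred proteins, 1 was called higher with SRC-1 siRNA and 0 with non-targeting siRNA. It was DYRK1A, a kinase that phosphorylates SPRY2, at 0.22 ± 0.05 log2 (SE, limma adjusted p = 0.0199), and the count was 0 without siSRC-1_V replicate 2 or any siSRC-1_E replicate. CAV1 (-0.05 log2) and PPP2CA (0.19 log2), the partners with the highest levels, were not called with non-targeting siRNA (limma adjusted p = 0.704 and 0.332).

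For the effect of SRC-1 siRNA itself, 1.8% of all probe sets were called under estradiol and 1.21% under vehicle. Of 19 measured receptors and adaptors, 1 was called higher and 2 lower under estradiol, and 2 higher and 1 lower under vehicle, while 0 of 15 ERK output genes and 0 of 10 measured core genes were called in either. In fits of the compared arrays only, 0 receptors and adaptors were called under estradiol and 0 under vehicle, and with median centring 1 was called under estradiol. The receptor count under estradiol was 0 or 1 without any single array other than siSRC-1_V replicates 2 and 3, the count under vehicle was 1 without NT_V replicate 1, and 1 ERK output gene was called under estradiol without NT_E replicate 3. CAV1, the coat protein of caveolae, was called higher with SRC-1 siRNA under either treatment.

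Genes with the values most like SPRY2, TRIB1 and TRIB2 were found by the root mean square difference over the 12 arrays after each gene was centred on its own mean. For SPRY2 they were GEM, a small GTPase, at 0.081 log2, ETS1, a transcription factor that ERK phosphorylates, at 0.105 log2, and CD274, the ligand of PD-1, at 0.107 log2. For TRIB1 they were CITED2, a p300-binding regulator, at 0.096 log2, DUSP5 at 0.108 log2 and AMIGO2, an adhesion protein, at 0.115 log2. For TRIB2 they were PTCH1, the Hedgehog receptor, at 0.108 log2, ST3GAL5, a ganglioside synthase, at 0.120 log2, and PDGFC, a growth factor, at 0.123 log2. GEM differed between estradiol and vehicle by -0.58 log2 with SRC-1 siRNA and -0.54 with non-targeting siRNA, beside -0.54 and -0.54 for SPRY2. CITED2 differed by -0.74 and -0.67 log2 and DUSP5 by -0.84 and -0.66 log2, beside -0.82 and -0.65 for TRIB1. PDGFC differed by -0.27 and -0.16 log2 beside -0.42 and -0.30 for TRIB2. These genes were chosen for closeness over the same 12 arrays, so similar estradiol differences follow from the choice.

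**Figure D4:**
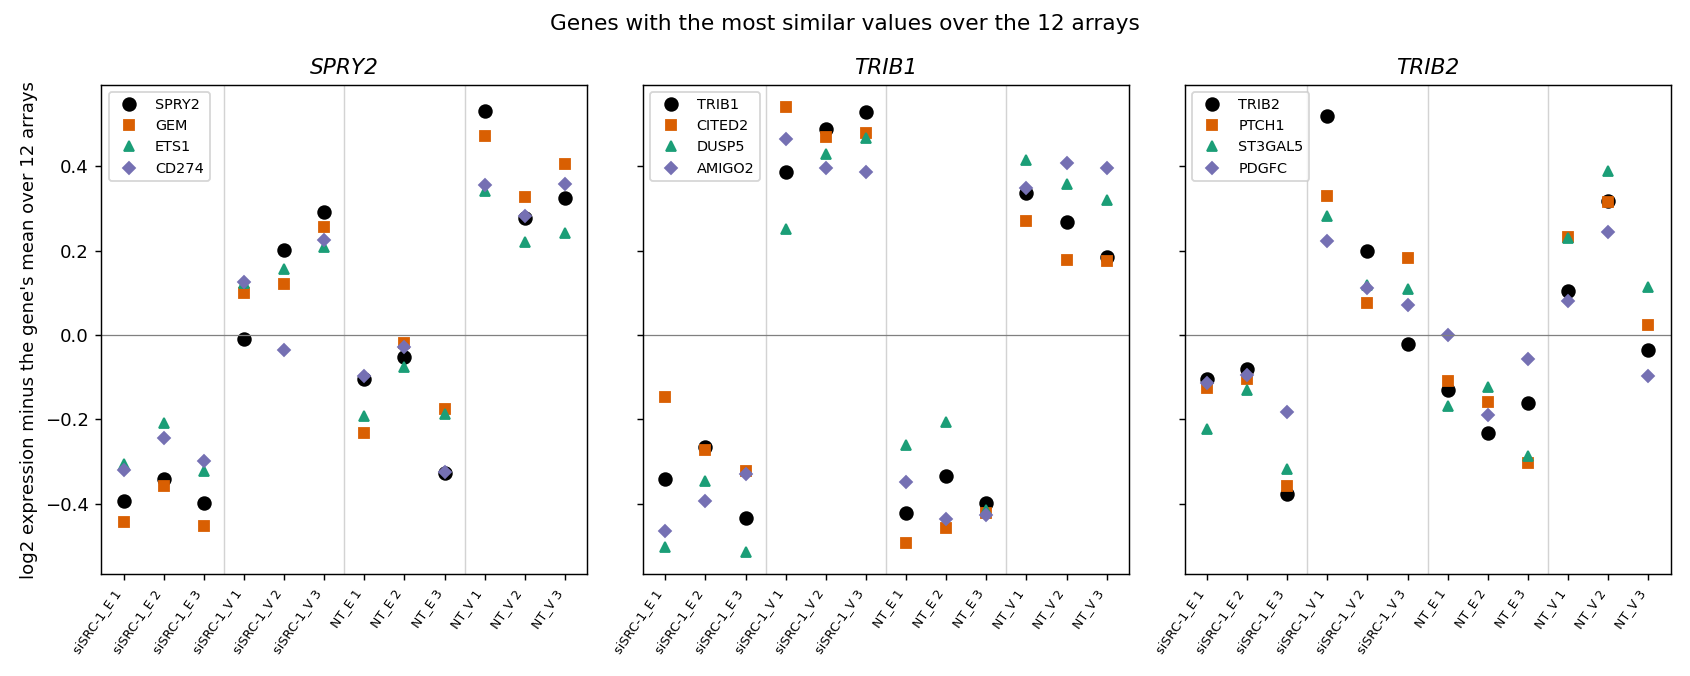
Log2 expression minus each gene's mean over 12 arrays (vertical axis) in each array (horizontal axis, by group and replicate) for SPRY2, TRIB1 and TRIB2 (black circles) and the 3 genes closest to each by root mean square difference. The SPRY2, TRIB1 and TRIB2 points are lower in the estradiol arrays than in the vehicle arrays of the same pool, and their neighbours differ from them by 0.081 to 0.123 log2 on this measure.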

How the data were processed

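Values were the authors' deposited log2 expression per probe set on 12 arrays, made from CEL files with the package affy per the series' design text; versions, background correction, normalization and summarization are not given in the sources used here. No rescaling was done. The table has 33297 probe sets, from which 4203 were dropped as presumed array controls because their identifiers precede 7896740, the lowest annotated one. Of 29094 tested, 19460 carry 1 symbol, 1754 several and 7880 none; 19429 of the 19460 matched the RefSeq table by Entrez identifier, with 0 symbols changed.

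With limma 3.58.1 (R 4.3.3) a linear model with 4 group means was estimated from the 12 arrays together (3.15 prior and 8 residual degrees of freedom), for 7 contrasts, two-sided, with Benjamini-Hochberg adjustment; calls needed p under 0.01 and adjusted p under 0.05, as the submitters state. The code was tested on simulated data with 200 changed probe sets. Members and lists were chosen with earlier results of these data known. Named were the 8 members, NCOA1 and ESR1, per list and estradiol comparison up to 4 called genes with the smallest p (or the 2 with the highest mean), and 3 genes nearest each member called in the averaged estradiol effect. TRIB3 with non-targeting siRNA, EGR1 and FOSL1 with SRC-1 siRNA, EPHA4 with both pools and marker genes were named besides. No genome build goes with the values, so genes have no positions. Same-numbered arrays of different groups had deviations correlating at -0.035 to 0.209. Of 18 pairs 6 were above 0.1, all among replicates 1 and 2 of NT_V, siSRC-1_V and siSRC-1_E. Different-numbered arrays were not compared, so these values do not decide whether numbers pair samples. The main model did not pair them. Alternatives were a replicate block, the compared arrays only, other filters, scalings, variances and thresholds, array weights, a control-mean covariate and each array left out.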

Additional observations from a re-analysis of the deposited data

How the results depend on the processing

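The block of replicate numbers, which the correlations of same-numbered arrays do not show to pair samples, gave 2 and 2 members called for estradiol with SRC-1 and non-targeting siRNA, 3 averaged and 0 in the siRNA comparisons; TRIB2 with SRC-1 siRNA was then called (-0.42 log2, adjusted p = 0.0437), as without the dimmest 40% of probe sets (0.0489) and with a trended and robust variance (0.0496). With the control mean as a covariate, 0 members were called for estradiol with SRC-1 siRNA, 1 with non-targeting siRNA and 1 averaged. At least a 1.5-fold change left 1, 1 and 1 (TRIB1). With a trended and robust variance TRIB1 was called for SRC-1 siRNA under vehicle (1 member, adjusted p = 0.0415), and SPRY2 for SRC-1 siRNA averaged over both treatments (1 member), as without the dimmest 40% (1 member). Leaving out single arrays left 2 to 3 members called with SRC-1 siRNA, 2 with non-targeting siRNA and 2 to 3 averaged.

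Over all probe sets the covariate gave 106 calls with SRC-1 siRNA, 366 with non-targeting siRNA and 212 averaged, against 2001, 793 and 2898. Calls with SRC-1 siRNA were 958 in the compared arrays only and 1042 to 2956 with 1 array left out; for the siRNA effect they were 121 to 1246 under estradiol and 90 to 857 under vehicle over alternatives that kept the thresholds, against 524 and 352, and averaged 863 to 2422 against 1483. An adjusted p under 0.01 gave 801 with SRC-1 siRNA, 422 with non-targeting siRNA and 1303 averaged for estradiol, and 167, 145 and 535 for the siRNA effect under estradiol, under vehicle and averaged. At least a 1.5-fold change gave 302, 165 and 206, and 63, 41 and 43. With the covariate 1 ERK output gene, 2 other brakes, 0 receptors, 0 core genes, 0 Tribbles partners and 0 Sprouty and Spred partners were called with SRC-1 siRNA, and 3, 6, 0, 1, 1 and 0 with non-targeting siRNA. Over all alternatives the other brakes called with SRC-1 siRNA numbered 2 to 10. For the siRNA effect under estradiol, receptors and adaptors called were 3, against 0 with the replicate block, in the compared arrays only or with the covariate, 1 with median centring, 5 without the dimmest 40% and 6 with a trended and robust variance; under vehicle they were 3, against 0 in the compared arrays only. The cause was not tested.

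Differences near 0 that changed sign were called in neither setting. With the control mean as a covariate, for estradiol with SRC-1 siRNA, the log2 value was 0.14 for SPRY1, -0.20 for SPRY4, 0.084 for SPRED1, -0.060 for SPRED2 and 0.25 for SPRED3. With the control mean as a covariate, for estradiol with the non-targeting pool, the log2 value was -0.066 for SPRY4. With the control mean as a covariate, for SRC-1 siRNA under estradiol, the log2 value was 0.0089 for TRIB2. With the control mean as a covariate, for the difference of the effects, the log2 value was 0.024 for SPRED1 and 0.042 for SPRED3. With median centring, for estradiol with SRC-1 siRNA, the log2 value was 0.014 for SPRY1 and 0.0098 for SPRED1. With median centring, for SRC-1 siRNA under vehicle, the log2 value was -0.0072 for SPRED2. With quantile normalization, for estradiol with SRC-1 siRNA, the log2 value was 0.019 for SPRY1. With quantile normalization, for the difference of the effects, the log2 value was -0.022 for SPRY2. With array weights, for SRC-1 siRNA under vehicle, the log2 value was -0.0020 for SPRED2 and 0.021 for SPRED3. With array weights, for the difference of the effects, the log2 value was -0.049 for SPRY2. Without single arrays, for estradiol with SRC-1 siRNA, values ran from -0.10 to 0.049 for SPRY1, -0.054 to 0.059 for SPRY4, -0.046 to 0.019 for SPRED1 and -0.0083 to 0.018 for SPRED2. Without single arrays, for estradiol with the non-targeting pool, values ran from -0.0048 to 0.049 for SPRY4, -0.017 to 0.032 for SPRED1 and -0.052 to 0.081 for SPRED3. Without single arrays, for SRC-1 siRNA under estradiol, values ran from -0.049 to 0.018 for SPRY4, -0.0036 to 0.080 for TRIB1 and -0.067 to 0.082 for TRIB2. Without single arrays, for SRC-1 siRNA under vehicle, values ran from -0.085 to 0.13 for SPRY1, -0.046 to 0.066 for SPRY4, -0.012 to 0.017 for SPRED2, -0.11 to 0.097 for SPRED3 and -0.039 to 0.23 for TRIB2. Without single arrays, for the difference of the effects, values ran from -0.013 to 0.21 for SPRY1, -0.086 to 0.066 for SPRY2, -0.085 to 0.027 for SPRY4, -0.058 to 0.0073 for SPRED1 and -0.24 to 0.027 for TRIB2. Each gene has 1 probe set, so no other probe set could be tried, and SPRY4 is not tested without the dimmest 40%. The difference of effects and the averages use all 4 groups, so a fit of the compared arrays only gives no other value for them.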
